A study of Mus musculus with 43 samples.

Results

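The cytokine genes Il1a, Il1b, Tnf and Il6, the IL-1 antagonist gene Il1rn, the chemokine genes Cxcl2, Ccl2, Ccl3 and Ccl4 and the chemokine-binding receptor gene Ccrl2 were followed in mononuclear phagocytes of the newborn mouse lung. They are 10 of the 37991 genes in the deposited count table, and their rows were found by matching symbols to Ensembl identifiers. The 10 genes were chosen with earlier results of these data known. Hyperoxic newborns breathed a fraction of inspired oxygen of 0.9 for 1.5 days, and normoxic newborns stayed in room air for the same time. All were C57BL/6 pups, litters were mixed before random assignment, and the lungs of both conditions were perfused and digested before the sort. The 4 gates were CD11chi cells with much MHC class II (dendritic cells, DC), CD11chi cells with much Siglec-F (alveolar macrophages, AM), and a Ly6Chi CD11clo and a Ly6Clo CD11chi gate, called Ly6Chi and Ly6Clo here. Each gate gave 5 hyperoxic libraries and 6 normoxic ones, except for 5 normoxic libraries of Ly6Clo, 43 in all. They stem from 3 litters, numbered 93, 100 and 108, and each hyperoxic group holds 2 libraries of litter 93, 1 of litter 100 and 2 of litter 108. Labels tie no library to a pup, so libraries of different populations may share one, and p-values measure the spread between libraries.

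As background, IL-1α and IL-1β both act on the IL-1 receptor. IL-1α is active as made and is released by damaged cells, while IL-1β is cut by caspase-1 in inflammasomes before it acts. Il1rn encodes the antagonist that occupies the receptor without signalling. TNF is an early macrophage cytokine, and IL-6 signals through gp130 to the acute-phase response. CXCL2 draws neutrophils through CXCR2, CCL2 draws monocytes through CCR2, and CCL3 and CCL4 are macrophage inflammatory proteins that draw leukocytes. CCRL2 binds chemerin without signalling of its own. Transcription of most of these genes in macrophages depends on NF-κB, often with AP-1, and many of the transcripts are short-lived.

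The stretches just before the start sites of 5 of these genes are shown for the κB, AP-1 or TATAAA letters that a search found in them, of which Il1b and Tnf hold only TATAAA. Of the 10 genes, 8 have an entry in the RefSeq promoter table of build GRCm38.p6, with windows from 250 bases before to 50 after a start. Ccl2 and Ccl4 have none. The κB letters (GGG, any 2 bases, then TTTCC), searched on both strands like the others, were found in windows of Il1rn, Il6 and Cxcl2 and in 1.89% of all 27025 genes with a window. The AP-1 letters TGANTCA were found for Il1rn, Il1a and Il6, against 8.97% of all genes, and TATAAA for Il1rn, Il1a, Il1b and Tnf, against 15.7%. Matches to one motif did not overlap matches to another in the sequences printed. These matches describe letters and not binding. The last 100 bases before the start are printed below from 5′ to 3′ on the gene's strand, with these motifs in capitals (κB in Cxcl2 and Il6, AP-1 and TATAAA in Il1a, TATAAA in Il1b and Tnf). They lie at chr5:90903799-90903898 on the plus strand for Cxcl2, chr5:30013014-30013113 on the plus strand for Il6, chr2:129309973-129310072 on the minus strand for Il1a, chr2:129371140-129371239 on the minus strand for Il1b and chr17:35202008-35202107 on the minus strand for Tnf.
Cxcl2: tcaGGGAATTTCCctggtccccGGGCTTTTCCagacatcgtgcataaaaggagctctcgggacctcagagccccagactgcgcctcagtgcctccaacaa
Il6: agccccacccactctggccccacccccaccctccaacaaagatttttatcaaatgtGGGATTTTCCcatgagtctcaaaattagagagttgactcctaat
Il1a: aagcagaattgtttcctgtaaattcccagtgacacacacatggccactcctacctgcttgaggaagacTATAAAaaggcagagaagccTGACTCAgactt
Il1b: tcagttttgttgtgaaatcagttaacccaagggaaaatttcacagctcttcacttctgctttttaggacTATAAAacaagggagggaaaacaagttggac
Tnf: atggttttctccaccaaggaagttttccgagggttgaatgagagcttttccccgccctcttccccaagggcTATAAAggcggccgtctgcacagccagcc

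Library totals ran from 551960 to 2403861 counts, and they limit precision for the weakest of these genes. Levels are counts per 1000000 (CPM) after TMM scaling over all 43 libraries, and errors of means are standard deviations (SD). The gates were checked against marker genes in normoxia. The summed level of 11 alveolar macrophage markers was 3503 to 4235 CPM in AM and 1731 to 2948 CPM in Ly6Clo. It was at most 477 CPM in DC and at most 874 CPM in Ly6Chi, so Ly6Clo held much of this signal too. The 12 interstitial macrophage and non-classical monocyte markers summed to 3304 to 4212 CPM in Ly6Clo, 2612 to 3211 CPM in DC and at most 2374 CPM elsewhere. The 10 dendritic cell markers summed to 4697 to 6949 CPM in DC and to at most 1229.9 CPM elsewhere. The 8 classical monocyte markers summed to 4529 to 6252 CPM in Ly6Chi and to at most 2401 CPM elsewhere. The 14 neutrophil markers summed to 2051 to 3889 CPM in normoxic Ly6Chi libraries, against at most 1531 CPM in the other normoxic groups. Within that list, S100a8 and S100a9 had medians of 280 and 276 CPM in normoxic Ly6Chi, and Ly6g was at most 7.49 CPM. The sum therefore does not show that neutrophils were in the gate. In the bulk libraries of a gate, fewer cells of a type and less RNA per cell cannot be told apart.

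In normoxia the 4 populations differed in the IL-1 genes, in Ccl2 and in Ccl3. Il1rn and Il1a were high in AM and Ly6Clo, low in DC and lowest in Ly6Chi, while Il1b was highest in Ly6Clo. Ccl2 was at most 8.49 CPM in AM, and Ccl3 was lower in DC than in the other 3 populations. Normoxic libraries of the 4 populations were fitted together with litter as a term in edgeR's quasi-likelihood test, over 11979 genes, and calls are at a Benjamini-Hochberg adjusted p under 0.05. In DC over AM, 3 of the 9 genes tested were higher and 3 lower, beside 27.5% and 22.4% of all genes (49.9% in either direction). In DC over Ly6Chi the counts were 3 higher and 2 lower (14.2% and 14.4% of all genes, 28.7% together), and in DC over Ly6Clo 0 higher and 4 lower (11.7% and 12.7%, 24.4% together). In AM over Ly6Chi, 2 were higher and 2 lower (24% and 28.3%, 52.2% together), and in AM over Ly6Clo 0 were higher and 4 lower (7.28% and 14.2%, 21.5% together). In Ly6Chi over Ly6Clo, 0 were higher and 4 lower (15.7% and 15%, 30.7% together). Il6 was below the minimum count and was not tested.

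Il1a, the alarmin form of IL-1, was highest in AM and Ly6Clo. The 6 normoxic DC libraries ran from 19.3 to 94.2 CPM with a median of 57.7, and the 6 AM libraries from 93.1 to 255 CPM with a median of 190.1. Ly6Chi libraries ran from 0 to 11.8 CPM with a median of 4.06, and the 5 Ly6Clo libraries held 142, 167, 264, 224 and 174 CPM. Ly6Chi therefore did not overlap with any other population, and AM overlapped with Ly6Clo and, narrowly, with DC. The share of all genes without such overlap between normoxic populations is not given. Il1a was lower in Ly6Chi than in Ly6Clo by a log2 difference of -5.40 ± 0.42 (standard error, SE; edgeR adjusted p = 1.79e-09), and the difference between AM and Ly6Clo was -0.15 ± 0.33 (edgeR adjusted p = 0.785). DC over Ly6Chi was 3.55 ± 0.41 (edgeR adjusted p = 6.51e-07).

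Il1rn, which encodes the antagonist, had the same order of populations at both ends. It averaged 655 ± 106 CPM in AM and 509 ± 121 in Ly6Clo, which did not pass the test against each other (log2 0.35 ± 0.20, edgeR adjusted p = 0.203). DC averaged 163 ± 42.3 CPM and Ly6Chi 109 ± 34.0 CPM, and the difference of 0.56 ± 0.19 passed (edgeR adjusted p = 0.0309) but was lost in 10 of 31 alternatives. Il1b averaged 197 ± 18.6 CPM in DC, 111 ± 25.2 in AM, 137 ± 52.7 in Ly6Chi and 302 ± 53.1 in Ly6Clo, so that its order from high to low was Ly6Clo, DC, Ly6Chi and AM. Of the neighbours in that order, DC and Ly6Clo differed (DC over Ly6Clo -0.60 ± 0.20, edgeR adjusted p = 0.0268), as did DC and Ly6Chi (0.56 ± 0.19, edgeR adjusted p = 0.029), and AM and Ly6Chi did not (-0.28 ± 0.20, edgeR adjusted p = 0.248). These 2 calls were lost in 5 and 8 of 31 alternatives, leaving out litter 100 among them for both. Per kilobase of exon, Il1b exceeded Il1rn in normoxic DC (103 ± 9.75 against 29.4 ± 7.63 CPM per kb), and Il1rn exceeded Il1b in normoxic AM (118 ± 19.1 against 58.2 ± 13.2). The counting carries no strand, and exons of Il1b overlap those of the antisense gene Il1bos and exons of Il1a those of the antisense gene Gm14023, so reads of each pair cannot be told apart.

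Among the chemokine genes, Ccl2 ran from 0 to 8.49 CPM in the 6 normoxic AM libraries, or 0 to 10 counts. It averaged 40.3 ± 28.6 CPM in DC, 105 ± 43.4 in Ly6Chi and 72.7 ± 72.8 in Ly6Clo. AM was lower than Ly6Chi by a log2 difference of -4.76 ± 0.68 (edgeR adjusted p = 6.52e-06) and lower than the other populations as well, with adjusted p of at most 0.000648 in edgeR. The larger SD of Ly6Clo came with litter: the 2 libraries of litter 93 held 167 and 136 CPM, and the other 3 held 15.7 to 26.1 CPM. Ccl3 averaged 73.5 ± 27.1 CPM in DC, against 183 ± 27.2 in AM, 143 ± 29.3 in Ly6Chi and 190.1 ± 54.4 in Ly6Clo, and DC was lower than each (edgeR adjusted p of at most 0.000347). Cxcl2 averaged 47.0 ± 38.4 CPM in DC, 35.4 ± 37.5 in AM, 31.3 ± 33.8 in Ly6Chi and 116 ± 98.2 in Ly6Clo. Its calls of AM over Ly6Clo (-1.53 ± 0.52, edgeR adjusted p = 0.0418) and Ly6Chi over Ly6Clo (-1.79 ± 0.50, edgeR adjusted p = 0.0101) were lost without litter 93 or litter 100. Ccrl2 was lowest in AM (41.3 ± 30.4 CPM), and its log2 difference from Ly6Clo was -1.18 ± 0.26 (edgeR adjusted p = 0.00167).

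Tnf was called in no pair of populations. Its normoxic means were 40.7 to 59.0 CPM, and its smallest adjusted p in edgeR was 0.361. Ccl4, with means of 40.5 to 74.7 CPM, was called in no pair either. Its group SD was 27.7 to 56.9 CPM, and the highest normoxic values were 174 CPM in DC and 171 CPM in Ly6Clo, both in libraries of litter 100. Il6 averaged 2.66 to 3.34 CPM in the 4 normoxic groups, or 0 to 18 counts in a library. For these 3 genes no order of the populations can be read.

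**Figure D1:**
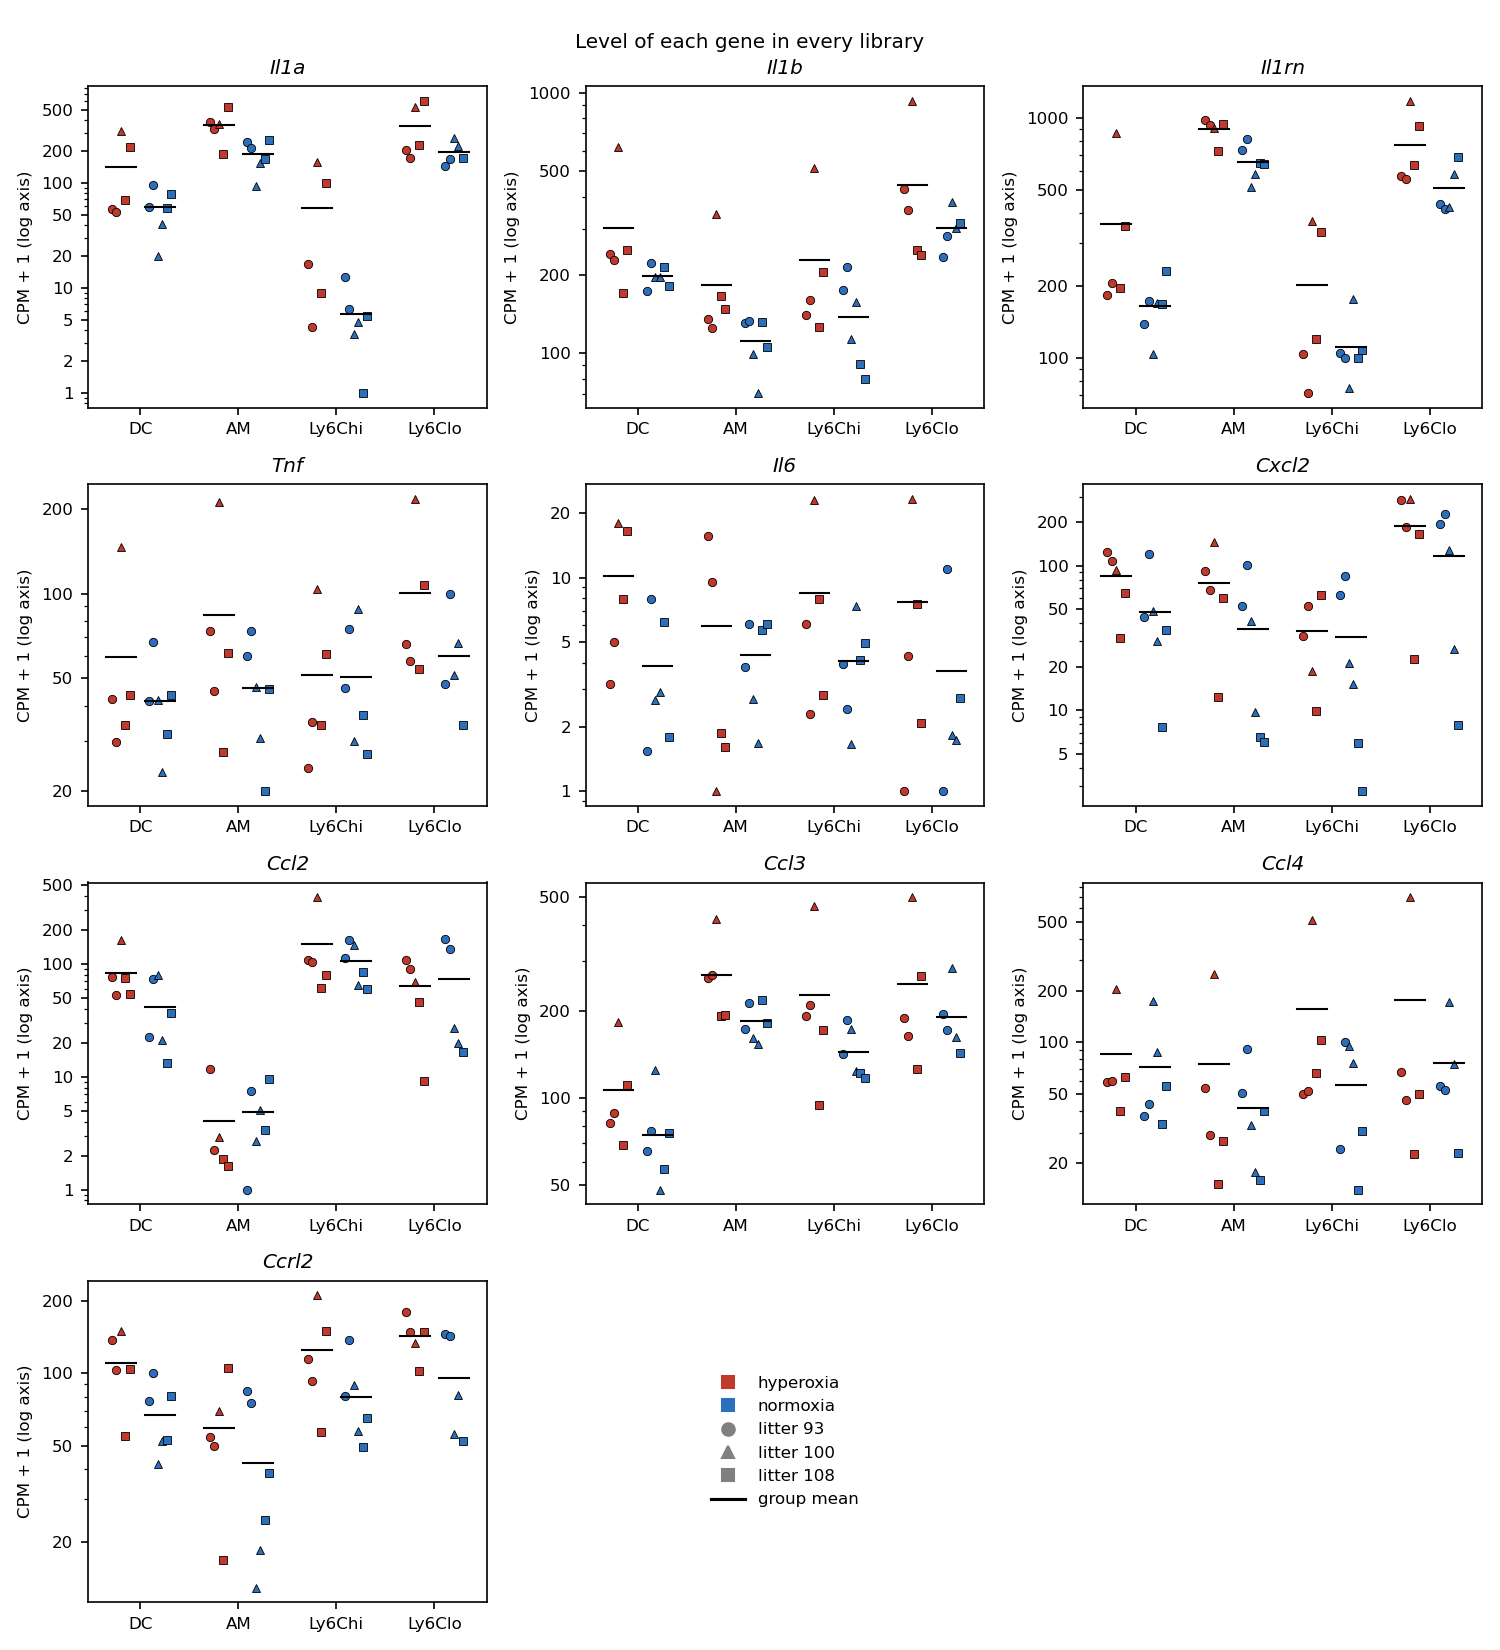
Level of each gene in every library, as CPM + 1 on log axes, by population, with hyperoxia left of normoxia. Symbols give the litter and bars the mean of each group; the triangle of hyperoxic litter 100 is the highest point of its population for 9 genes in DC, 5 in AM, 9 in Ly6Chi and 7 in Ly6Clo.

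The change under hyperoxia was fitted in each population with litter as a term. None of these genes was called in any population by edgeR. Limma voom gave 0 as well, DESeq2 called 2 in AM and 0 elsewhere, and with every counted gene kept in the test edgeR called 7 in DC, 3 in AM, 6 in Ly6Chi and 3 in Ly6Clo. Over all genes DESeq2 called 20, 112, 7 and 5 in DC, AM, Ly6Chi and Ly6Clo. EdgeR with every counted gene kept called 369, 325, 235 and 173 in that order. In the main edgeR fit the share of all genes at an adjusted p under 0.05 was low. It was 0% of 11274 genes in DC, 0.11% of 9986 in AM, 0% of 10844 in Ly6Chi and 0% of 10188 in Ly6Clo. Of the 10 genes, 9 were tested in DC, 8 in AM, 9 in Ly6Chi and 9 in Ly6Clo. Il6 was below the minimum count everywhere and Ccl2 in AM. All 35 fold changes so tested lay above 0. The genes left out in AM had values below 0 when tested without the filter (-0.73 for Ccl2, -0.41 for Il6) and in DESeq2 (-0.80 and -0.48), and Il6 had values above 0 in the other 3 populations under both. Among all genes tested, 50.1%, 48.8%, 47.6% and 47.9% had fold changes above 0 in DC, AM, Ly6Chi and Ly6Clo. Of the 35, 21 had an unadjusted p under 0.05 with a fold change above 0: 6 in DC, 5 in AM, 5 in Ly6Chi and 5 in Ly6Clo, beside 4.11%, 5.24%, 2.86% and 2.96% of all genes. None of the 10 had such a p with a fold change below 0, beside 4.75%, 4.68%, 2.59% and 2.34% of all genes. Median log2 fold changes over the tested genes were 0.69, 0.65, 0.70 and 0.71 in that order of populations, and all genes had medians of 0.00, -0.01, -0.01 and -0.01. None of the 10 had hyperoxic libraries that all lay above the normoxic ones, beside 0.142%, 0.451%, 0.0369% and 0.294% of all genes. Because the 10 genes were chosen with earlier results of these data known, these counts and shares are a description and no independent support.

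**Figure D2:**
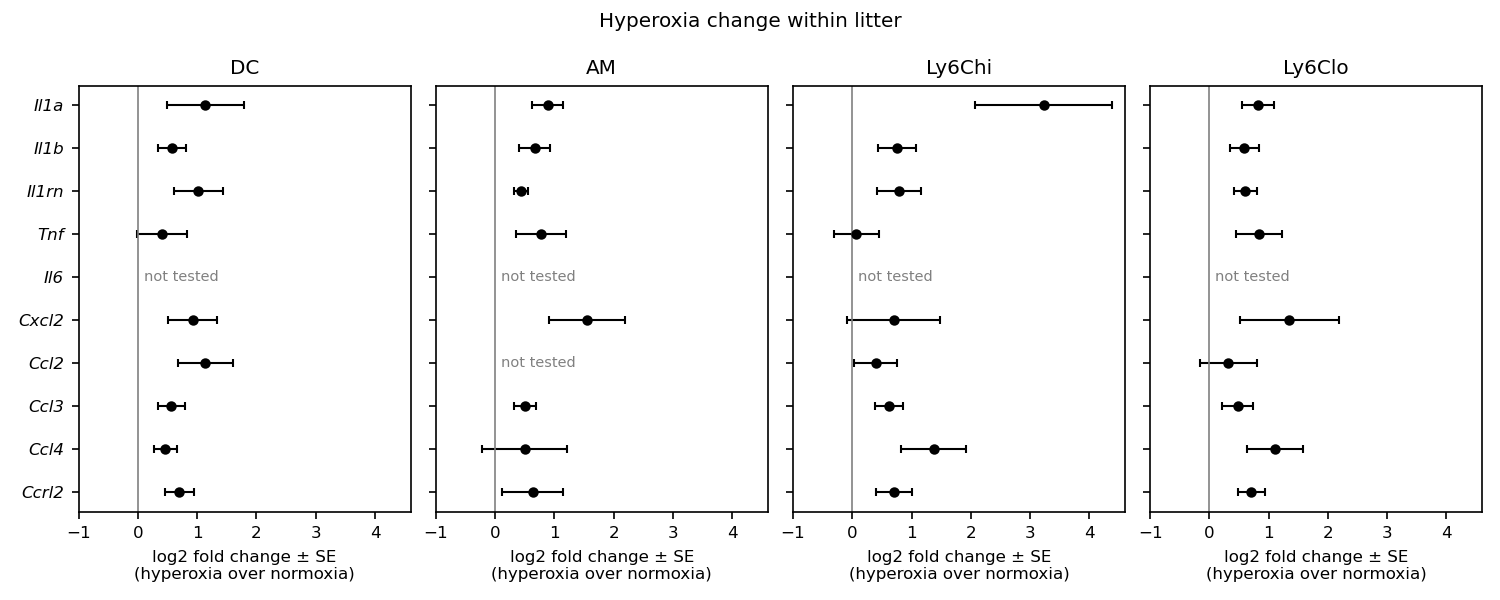
Log2 fold change of each gene, hyperoxia over normoxia within litter, in the 4 populations, with bars of 1 SE from edgeR. All 35 points lie right of 0, none passed at an adjusted p of 0.05, and the largest is Il1a in Ly6Chi at 3.23 ± 1.16. There Il1a passed the minimum count mainly through hyperoxic libraries.

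Il1a in Ly6Chi had the largest of the 35 fold changes, but it passed the minimum count mainly through its hyperoxic libraries. It had 0 to 28 counts in normoxic libraries and 5 to 217 in hyperoxic ones. With 1 library left out it was tested in 10 fits, against 11 for Il1b. The 5 hyperoxic libraries held 15.8 and 3.22 CPM in litter 93, 156 CPM in litter 100 and 7.92 and 98.3 CPM in litter 108, against 0 to 11.8 CPM in normoxic libraries with a median of 4.06. Thus 2 hyperoxic libraries lay far above the rest and 2 within the normoxic range. The log2 fold change was 3.23 ± 1.16 (edgeR adjusted p = 0.758), and 2.16 without the hyperoxic library of litter 100. In DC the hyperoxic libraries held 55.5, 52.3, 309, 67.4 and 217 CPM for litters 93, 93, 100, 108 and 108, against 19.3 to 94.2 CPM in normoxia, a log2 fold change of 1.13 ± 0.65 (edgeR adjusted p = 0.636). The library of litter 100 and 1 of litter 108 lay above the normoxic range, and the fold change was 0.31 without that of litter 100. In AM the hyperoxic libraries of Il1a held 379, 327, 360.3, 186 and 527 CPM, against 93.1 to 255 CPM in normoxia (0.89 ± 0.26, edgeR adjusted p = 0.261). Here 4 of 5 lay above every normoxic library, and the fold change without the library of litter 100 was 0.69. In Ly6Clo the 5 hyperoxic libraries held 205, 173, 523, 229.9 and 607 CPM, against 142 to 264 CPM in the 5 normoxic ones (0.82 ± 0.26, edgeR adjusted p = 0.86), and the fold change without the library of litter 100 was 0.67.

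In AM, Il1rn was higher in hyperoxia in all 3 litters, without passing the test. Hyperoxic libraries held 979.7, 934, 906, 726 and 939.7 CPM, against 516 to 812 CPM in normoxic ones with a median of 646, and 4 of the 5 lay above all normoxic libraries. The log2 fold change was 0.43 ± 0.12 (edgeR adjusted p = 0.203), with 0.31, 0.73 and 0.36 in litters 93, 100 and 108. It was 0.34 without the hyperoxic library of litter 100. The 2 genes that DESeq2 called in AM were Il1rn and Il1a, at adjusted p of 0.0136 and 0.0267. In DC the hyperoxic libraries of Il1rn held 181, 203, 865, 195 and 355 CPM, against 102 to 229.9 CPM in normoxia (1.02 ± 0.42, edgeR adjusted p = 0.546). The library of litter 100 thus stood far above the others, and the fold change without it was 0.38. In Ly6Clo, values of 570.5, 557, 1179.7, 634 and 920.2 CPM stood against 437, 414, 423, 585 and 686 CPM in normoxia (0.60 ± 0.19, edgeR adjusted p = 0.86), and in Ly6Chi the fold change was 0.78 ± 0.37 (edgeR adjusted p = 0.758). Without the library of litter 100 these were 0.31 in Ly6Clo and 0.46 in Ly6Chi.

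Il1b was high in 1 hyperoxic library of each population. The hyperoxic library of litter 100 held 619 CPM in DC, 341 in AM, 513 in Ly6Chi and 933 in Ly6Clo. The other 4 hyperoxic libraries held 169.6 to 249 CPM in DC, 124 to 165 in AM, 125 to 204 in Ly6Chi and 239 to 426 in Ly6Clo, against normoxic ranges of 173 to 222, 69.4 to 133, 78.4 to 214 and 233 to 379 CPM. With that library counted, 4 of 5 hyperoxic libraries lay above every normoxic one in DC and in AM, 1 in Ly6Chi and 2 in Ly6Clo. Outside that library the ranges of the conditions overlapped in every population. Fold changes were 0.57 ± 0.24 in DC, 0.67 ± 0.26 in AM, 0.76 ± 0.33 in Ly6Chi and 0.59 ± 0.24 in Ly6Clo on the log2 scale, and 0.15, 0.19, 0.27 and 0.21 without it.

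Tnf was high in the same libraries, at 146 CPM in DC, 209.7 in AM, 103 in Ly6Chi and 216 in Ly6Clo. In Ly6Chi the other 4 hyperoxic libraries reached 59.8 CPM, against 87.2 CPM in the 6 normoxic ones. Its fold changes were 0.41 ± 0.42, 0.77 ± 0.42, 0.07 ± 0.38 and 0.84 ± 0.39 in DC, AM, Ly6Chi and Ly6Clo (log2 ± SE), with none called. Without the hyperoxic library of litter 100 they were -0.29, 0.13, -0.24 and 0.28 in that order, so that the sign turned in DC and Ly6Chi. Il6, a gene of few counts, had 17.1 CPM (22 counts) in DC, 22.0 CPM (21 counts) in Ly6Chi and 22.4 CPM (14 counts) in Ly6Clo in hyperoxic litter 100, and it was at 0 in AM of that litter. Normoxic libraries of Il6 reached 9.97 CPM, and other hyperoxic libraries above that held 15.5 CPM (30 counts) in DC of litter 108 and 14.7 CPM (11 counts) in AM of litter 93. In DC, Il6 had a log2 fold change of 1.51 without the filter (unadjusted p = 0.00192, edgeR adjusted p = 0.0836) and 1.53 in DESeq2 (unadjusted p = 0.0409, adjusted p = 0.613).

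Ccl4 had a wide gap between the same library and the rest in Ly6Clo, Ly6Chi and AM. In Ly6Clo the hyperoxic libraries held 66.2, 45.3, 695, 21.6 and 49.1 CPM for litters 93, 93, 100, 108 and 108, against 54.9, 52.1, 171, 73.8 and 21.8 CPM in normoxic libraries of litters 93, 93, 100, 100 and 108. In Ly6Chi they held 49.0, 51.5, 510.5, 65.2 and 102 CPM, against 13.04 to 99.2 CPM in normoxia. Beyond the library of litter 100, only the 102 CPM lay above the normoxic range, by less than the SD of that group. The log2 fold changes were 1.10 ± 0.47 in Ly6Clo and 1.37 ± 0.55 in Ly6Chi (edgeR adjusted p = 0.86 and 0.758), and 0.27 and 0.79 without it. In AM, where that library held 249.7 CPM and the other 4 hyperoxic ones 14.0 to 53.6 CPM against 14.9 to 90.1 in normoxia, the fold change of 0.50 ± 0.71 turned to -0.61 without it. In DC that library held 204 CPM, and normoxic libraries of litter 100 held 174 and 87.1 CPM. The fold change in DC was 0.46 ± 0.20 (edgeR adjusted p = 0.546), with all 3 litters higher, and 0.36 without that library.

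Ccl3, which also encodes a macrophage inflammatory protein, was high in these libraries too. The hyperoxic library of litter 100 held 183 CPM in DC, 418 in AM, 464 in Ly6Chi and 497 in Ly6Clo. In AM the hyperoxic values were 260.0, 266, 418, 192 and 193 CPM, against 153 to 219 CPM in normoxia, so that 3 of 5 lay above every normoxic library. Log2 fold changes of Ccl3 were 0.56 ± 0.23, 0.50 ± 0.18, 0.62 ± 0.24 and 0.48 ± 0.26 in DC, AM, Ly6Chi and Ly6Clo, and 0.35, 0.19, 0.22 and 0.14 without the library of litter 100. Ccl2 in DC had hyperoxic values of 75.1, 51.6, 162, 73.6 and 53.0 CPM, against 12.3 to 78.8 CPM in normoxia with a median of 28.7 (1.13 ± 0.47, edgeR adjusted p = 0.546). All 3 litters were higher there, by 0.63, 1.99 and 1.54 in litters 93, 100 and 108. In Ly6Chi the Ccl2 fold change was 0.39 ± 0.36, with 391 CPM in the library of litter 100 and 60.1 to 108 CPM in the others, and it was -0.21 without that library. In Ly6Clo the 0.32 ± 0.48 of Ccl2 stood beside means of 63.4 ± 38.5 CPM in hyperoxia and 72.7 ± 72.8 CPM in normoxia, and without the litter term it was -0.22.

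Cxcl2 differed between litters in both conditions. Its level in litter 93 was high in both conditions: hyperoxic DC of that litter held 124 and 107 CPM, against 43.4 and 119.7 CPM in normoxic DC, and hyperoxic Ly6Clo 282 and 186 CPM, against 194 and 227 CPM in normoxic Ly6Clo of the litter. In litter 108 the hyperoxic libraries held 11.4 and 58.7 CPM in AM and 21.6 and 165 CPM in Ly6Clo, against 5.10 and 5.51 CPM in normoxic AM and 6.97 CPM in normoxic Ly6Clo. The log2 differences in litter 108 were 1.49 in DC, 2.17 in AM, 2.73 in Ly6Chi and 2.99 in Ly6Clo. In litter 100 they were 1.29 in DC, 2.89 in AM, 0.06 in Ly6Chi and 2.32 in Ly6Clo, and the hyperoxic library of that litter was the highest of its population in AM (145 CPM) and Ly6Clo (289 CPM). The fold changes over all litters were 0.93 ± 0.41 in DC, 1.55 ± 0.64 in AM, 0.70 ± 0.78 in Ly6Chi and 1.35 ± 0.84 in Ly6Clo, and 0.79, 1.10, 0.86 and 0.94 without the library of litter 100. Ccrl2 had log2 fold changes of 0.69 ± 0.25, 0.63 ± 0.51, 0.70 ± 0.30 and 0.71 ± 0.23 in DC, AM, Ly6Chi and Ly6Clo. They were 0.34, 0.18, 0.37 and 0.56 without the library of litter 100, and 0.061 in AM without hyperoxic replicate 5, of litter 108. In Ly6Clo its hyperoxic libraries held 178, 147, 133, 101 and 147 CPM, against 144, 142, 54.7, 80.4 and 51.4 CPM in normoxia, so that the high normoxic values were those of litter 93.

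The litters differed in how much these genes moved. Over the 35 tested combinations of gene and population, the difference of mean log2 CPM was above 0 in 19 in litter 93 (median 0.06), in 35 in litter 100 (median 1.68) and in 31 in litter 108 (median 0.45). It was above 0 in all 3 litters for 7 genes in DC, 3 in AM, 2 in Ly6Chi and 5 in Ly6Clo, beside 15.3%, 14.2%, 12.6% and 9.28% of all genes. Litter 100 rests on a single hyperoxic library in each population. Without it the medians were 0.35 in DC, 0.19 in AM, 0.37 in Ly6Chi and 0.28 in Ly6Clo, fold changes above 0 numbered 8, 7, 7 and 8, and unadjusted p under 0.05 remained for 0, 2, 0 and 1 genes.

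**Figure D3:**
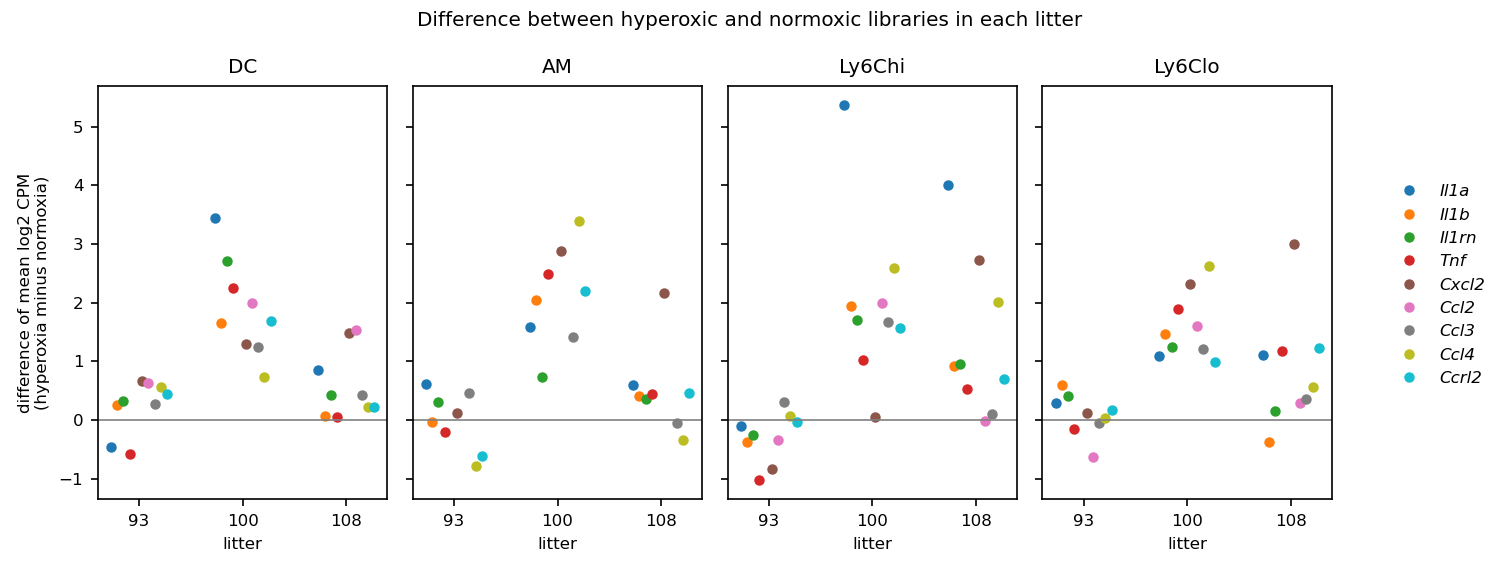
Difference of mean log2 CPM, hyperoxia minus normoxia, within each litter (horizontal axis) for the tested genes in the 4 populations; points are set side by side only to keep them apart. In litter 100, where each hyperoxic value is 1 library, all 35 points lie above 0; the median is 1.68, against 0.06 in litter 93 and 0.45 in litter 108.

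These 4 hyperoxic libraries of litter 100 also had the lowest totals of their groups, 1309747 counts in DC, 551960 in AM, 1026528 in Ly6Chi and 647844 in Ly6Clo, and the fewest detected genes, 13306 to 14963. Across all 43 libraries, after subtracting the group means, log2 CPM of Ccl4, Ccl3 and Il1b correlated with the log2 total at r of -0.61, -0.60 and -0.53, beside a median of 0.08 over all genes, and the other 7 genes had r of -0.34 to 0.17. These r include the 4 hyperoxic libraries of litter 100, and no r without them is given. The part of depth in the fold changes was not tested.

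**Figure D4:**
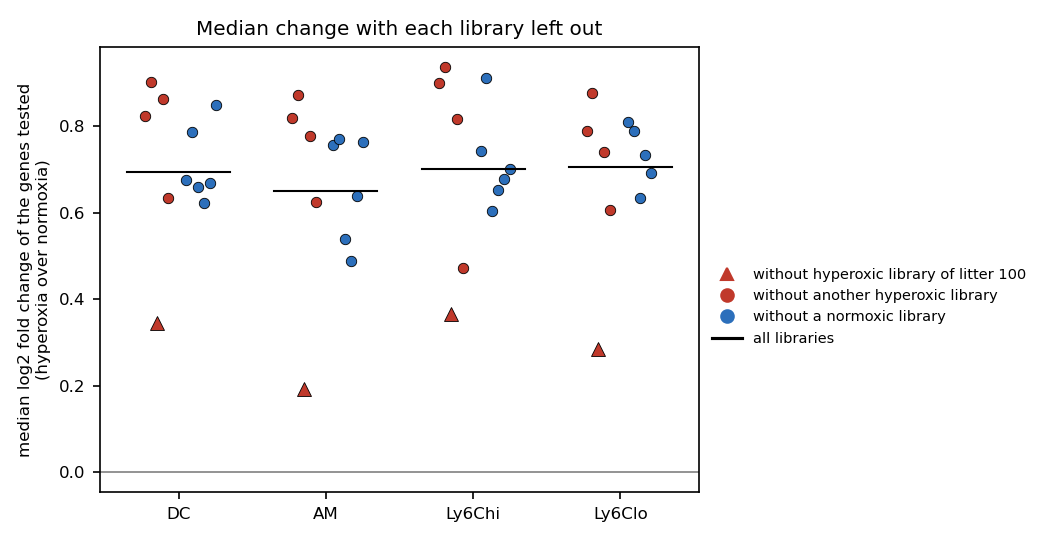
Median log2 fold change of the tested genes, hyperoxia over normoxia, when 1 library is left out, by population; lines give the median with all libraries. Triangles, without the hyperoxic library of litter 100, lie at 0.35, 0.19, 0.37 and 0.28 and are the lowest of each population.

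Whether the change under hyperoxia differed between the 4 populations was tested over all 43 libraries and 12529 genes. None of the 10 genes passed, beside 0% of all genes. Il1a had the smallest p (unadjusted 0.0559, edgeR adjusted p = 0.999901), beside 4.92% of all genes under an unadjusted 0.05. The larger fold change of Il1a in Ly6Chi was therefore not shown to differ from the others.

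Across libraries the genes varied together to different degrees. The following r are Pearson correlations of log2 CPM over the 43 libraries after subtracting the mean of each of the 8 groups, and they describe libraries that share litters and differ in depth. Of the 45 pairs, 43 had r above 0 with a median of 0.38. Il1a with Il1rn (0.77), Ccl3 with Ccl4 (0.77), Il1b with Ccl4 (0.74) and Tnf with Ccl4 (0.74) were the highest, and Il6 with Cxcl2 (-0.13) the lowest. Over the 39 libraries other than hyperoxic litter 100, 36 pairs had r above 0, with a median of 0.23. Among 12529 genes, the most alike to Cxcl2 were Nfkbiz (0.79), which encodes an inducible nuclear IκB protein, Klf6 (0.69) and Gm17056 (0.69). To Ccrl2 they were Tnfaip3 (0.77), which encodes the NF-κB inhibitor A20, Socs3 (0.74), an inhibitor of cytokine signalling, and Ssc4d (0.64). Rab20 (0.85), Cd274 (0.83), which encodes PD-L1, and Ttc39b (0.80) were most alike to Il1rn, and the chemokine gene Ccl7 (0.70) and Gas7 (0.68) were among those most alike to Ccl2. Fam76a (0.75), Ccl4 (0.74) and Gbp4 (0.73) were most alike to Tnf. Ralgds (0.77) and Hilpda (0.75) followed Il1rn for Il1a, and Serpinb2 (0.56), Il12b (0.53) and D930028M14Rik (0.52) were the genes for Il6. For Ccl3 these were Psmg4, Capns1 and Tmem160 (0.84 to 0.85), for Ccl4 Eif3c, Mphosph8 and Ndufc1 (0.82 to 0.85), and for Il1b Gbp7, Cnot4 and Actn1 (0.76 to 0.77).

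Other genes of these pathways gave 0 calls in every list and population. Among 25 other chemokine genes, of which 15, 7, 8 and 12 were tested in DC, AM, Ly6Chi and Ly6Clo, the medians were 0.33, 0.51, 0.28 and 0.70. At an edgeR unadjusted p under 0.05, 1, 4, 2 and 1 of them were higher and 3, 1, 1 and 0 lower. Beside these stood 4.11%, 5.24%, 2.86% and 2.96% of all genes higher and 4.75%, 4.68%, 2.59% and 2.34% lower. In Ly6Chi, Cxcl10, an interferon-induced chemokine, averaged 100.1 CPM in hyperoxia and 13.9 CPM in normoxia (2.28 ± 0.73, edgeR adjusted p = 0.758), and in AM Ccl9 averaged 1232 CPM in hyperoxia and 857 CPM in normoxia (0.53 ± 0.14, edgeR adjusted p = 0.203). Their summed level was again highest in hyperoxic litter 100, with 3687, 5948, 3281 and 5599 CPM in DC, AM, Ly6Chi and Ly6Clo, against at most 2550, 4522, 1534 and 3343 CPM in the other hyperoxic libraries. Of 22 measured genes of the IL-1 family and its processing, 21, 19, 20 and 17 were tested, with medians of 0.12, 0.19, 0.08 and 0.09. Casp1, the protease that activates IL-1β, had 0.47 ± 0.14 in DC (edgeR adjusted p = 0.445), and the decoy receptor gene Il1r2 -1.76 ± 0.63 in Ly6Clo (edgeR adjusted p = 0.86). Genes of TNF and IL-6 release and signalling had medians of 0.00, 0.11, -0.01 and -0.00, among them Tnfrsf1b, which encodes TNF receptor type 2, at 0.53 ± 0.14 in AM (edgeR adjusted p = 0.202). In this list 0, 4, 1 and 3 genes were higher at an edgeR unadjusted p under 0.05, and 3, 0, 0 and 0 lower. Chemokine receptor genes had medians of 0.07, 0.36, 0.05 and -0.20, with Ccr7 at -0.75 ± 0.24 in DC (edgeR adjusted p = 0.475). Genes of cytokine mRNA decay and NF-κB feedback had medians of -0.11, 0.11, 0.07 and 0.03, with Nfkbia, which encodes IκBα, at 0.58 ± 0.19 in AM (edgeR adjusted p = 0.291).

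Genes that tissue digestion induces, and markers of other cells, were set beside these values. The 18 immediate early genes summed to 2594 CPM in DC, 1845 in AM, 3329 in Ly6Chi and 2414 in Ly6Clo of hyperoxic litter 100. These sums were the lowest of the hyperoxic group in DC and Ly6Chi and within the range of the other hyperoxic libraries, 1628 to 2511 and 2320 to 4854 CPM, in AM and Ly6Clo. Their medians of log2 fold change were -0.13, 0.12, 0.04 and -0.08 in DC, AM, Ly6Chi and Ly6Clo, with 0 called. The 12 T and NK cell markers, a cell class that also makes Ccl3 and Ccl4, summed to 665 CPM in Ly6Chi of hyperoxic litter 100, against 23.8 to 109.7 CPM in the other hyperoxic libraries, and to 141 CPM in DC (96.8 to 139 in the others), 97.2 in AM (79.8 to 326) and 54.3 in Ly6Clo (106 to 258). Neutrophil markers, a class that makes Il1b, summed to 418 CPM in DC, the lowest of the group, and to 827 in AM (234 to 1544 in the others). In Ly6Chi they summed to 2978 CPM (2995 to 3378 in the others) and in Ly6Clo to 727 CPM (299 to 504 in the others). Over the hyperoxic and normoxic groups, 9 of 11 tested neutrophil markers had a fold change above 0 in DC (median 0.43), 4 of 5 in AM (0.59), 7 of 13 in Ly6Chi (0.03) and 1 of 4 in Ly6Clo (-0.41). Of the tested classical monocyte markers, 6 of 8 had one above 0 in DC (median 0.11), 6 of 6 in AM (0.66), 4 of 8 in Ly6Chi (0.03) and 1 of 7 in Ly6Clo (-0.52). Of the tested epithelial markers, 1 of 10 did in DC (-0.27), 0 of 10 in AM (-1.12), 2 of 9 in Ly6Chi (-0.22) and 2 of 7 in Ly6Clo (-0.18). Of 7 endothelial markers, 1 did in DC (-0.36), 2 in AM (-0.31), 1 in Ly6Chi (-1.23) and 1 in Ly6Clo (-0.31). Of the tested interstitial macrophage and non-classical monocyte markers, 9 of 12 did in DC (0.23), 9 of 10 in AM (0.23), 5 of 11 in Ly6Chi (-0.02) and 0 of 12 in Ly6Clo (-0.29). Of the dendritic cell markers, 4 of 10 had a fold change above 0 in DC (-0.32). At an edgeR unadjusted p under 0.05, 0 of them were higher and 4 lower, beside 4.11% and 4.75% of all genes. Of the alveolar macrophage markers, 7 of 11 had one above 0 in AM (0.01), with 1 higher and 3 lower at such a p (5.24% and 4.68% of all genes). None of these markers was called by edgeR, and their part in the fold changes of the 10 genes was not tested. Classical monocyte markers were highest in that library in DC, with 3415 CPM against 1804 to 2489, in AM, with 1180.1 against 724 to 1027, and in Ly6Chi, with 6117 against 4213 to 5318 CPM. Mast cell and basophil markers summed to 22.4 to 46.1 CPM in the 4 libraries, within the range of the other hyperoxic libraries except in DC, where 38.0 CPM was the lowest. Epithelial markers summed to 219 to 2227 CPM. They were the lowest of the group in DC (229 CPM against 458 to 2188) and the highest in AM (2227 against 191 to 2161). In Ly6Chi and Ly6Clo they lay within the range of the others. Endothelial markers summed to 154 to 402 CPM, within the range of the others in each population. Interstitial macrophage and non-classical monocyte markers summed to 3846 CPM in DC, 1609 in AM, 1819.8 in Ly6Chi and 2789 in Ly6Clo of that litter, against 2943 to 3640, 1083 to 1894, 1855 to 2714 and 1516 to 4219 CPM in the other hyperoxic libraries.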

How the data were processed

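RNA-seq libraries were made from sorted cells with SMART-Seq v4 and Nextera XT, per the labels' protocols, which use neither molecular identifiers nor strand. The authors deposited whole-number counts per Ensembl gene with no normalization. The tools named in the submitters' processing notes are SAMtools, Picard, FastQC, HTSeq 0.4.1 and TopHat, and the build is NCBIM37; their roles and the annotation are not given in the sources used here. The highest count per exonic base in the table is 1.73, so counts of the most abundant transcripts look limited; the 10 genes stay at or under 0.738.

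Symbols and exonic lengths came from GENCODE M21 (32919 of 37991 identifiers with a symbol). Genes without a symbol hold 0.828% of counts. Counts were tested with edgeR 4.0.16 in R 4.3.3: filterByExpr (minimum count 10, minimum total 15), TMM scaling, robust quasi-likelihood F test, litter as an additive term, Benjamini-Hochberg over all genes tested, calls at 0.05. Fold changes use a prior count of 0.125 and log2 CPM a prior count of 1. The tests were run on simulated counts with the same spread for every gene and no litter effect or outlying library. These simulations differ from the data in those respects and do not show how the tests behave here. Replicate numbers follow accession order and pair nothing; the pairing comes from the litter label, and hyperoxic and normoxic libraries of a litter deviated together with r of 0.12 to 0.28 in all 12 combinations of population and litter. Alternatives were RLE scaling, no filter, DESeq2 1.42.0, limma 3.58.1 voom, no litter term, each litter or library left out, libraries under 1000000 counts left out, and counts corrected for a limit of 2 per exonic base. One was added after the data were seen: the test between populations without the 4 hyperoxic libraries of litter 100. The 10 genes and the 15 other gene lists were chosen with earlier results of these data known. All 10 genes are named; of the other lists, at most the 2 genes with the smallest p in a population; and the 3 genes of highest r for each gene, of which 1 is not reported here. Plots were made in matplotlib 3.10.9 (Python 3.11.15).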

Additional observations from a re-analysis of the deposited data

Results flagged for a closer look

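In 19 of 80 sets of 1 gene in 1 group, the highest library stood apart from the others by Dixon's criterion at 95%. That criterion gives about 1 in 20 by chance where values are normally distributed. Of the 19, 14 were the hyperoxic library of litter 100. Those were Il1b with 619 CPM in DC, 341 in AM, 513 in Ly6Chi and 933 in Ly6Clo, Ccl4 with 204 CPM in DC, 249.7 in AM, 510.5 in Ly6Chi and 695 in Ly6Clo, Il1rn with 865 CPM in DC, Tnf with 146 CPM in DC and 209.7 in AM, Il6 with 22.0 CPM in Ly6Chi, and Ccl2 with 162 CPM in DC and 391 CPM in Ly6Chi. The other 5 were Ccl2 in hyperoxic AM (10.7 CPM, litter 93), Il1rn in normoxic Ly6Chi (174 CPM, litter 100), Il6 in normoxic Ly6Clo (9.97 CPM, litter 93), Cxcl2 in normoxic DC (119.7 CPM, litter 93) and Ccl3 in normoxic DC (124 CPM, litter 100). These sets share libraries and are not independent of each other. The criterion was applied to CPM without a log scale, and the lowest library was flagged in 0 sets, so 1 in 20 does not measure the excess here.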

How the results depend on the processing

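The count of these genes called under hyperoxia was 0 in every population under RLE scaling, voom, no litter term, each litter left out and the correction for limited counts. Without the filter on low counts it was 7 in DC, 3 in AM, 6 in Ly6Chi and 3 in Ly6Clo, and all genes called were 369, 325, 235 and 173; the cause was not tested. DESeq2 called 2 in AM and 0 elsewhere, with 20, 112, 7 and 5 genes in all. With 1 library left out the count of these genes was 0 in DC, Ly6Chi and Ly6Clo and 0 to 1 in AM (Il1a, adjusted p = 0.0223 without hyperoxic replicate 4), and all genes called were 0 to 23 in DC and 5 to 39 in AM. The 11 genes called in AM became 0 without litter 93 and without libraries under 1000000 counts, and 5 without litter 108. No library of DC or Ly6Chi is under 1000000 counts, so that alternative was not run there. Counts of these genes with a fold change above 0 at an edgeR unadjusted p under 0.05 also moved with 1 library left out. They were 0 to 7 in DC, 2 to 6 in AM, 0 to 6 in Ly6Chi and 1 to 7 in Ly6Clo. In Ly6Chi the count was 0 without normoxic replicate 3, of litter 100, as well as without the hyperoxic library of that litter.

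Fold changes changed sign in AM for Ccl4 without litter 100 (-0.61) and for Ccl3 (-0.043) and Ccl4 (-0.40) without small libraries, in DC for Tnf without litter 100 (-0.28), in Ly6Chi for Cxcl2 with voom (-0.15) and without litter 108 (-0.51), for Tnf without litter 100 (-0.23) or litter 108 (-0.23) and for Ccl2 without litter 100 (-0.20), and in Ly6Clo for Ccl2 with voom (-0.15), without the replicate block of litter (-0.22), without litter 100 (-0.23) and without small libraries (-0.23). With 1 library left out, ranges that crossed 0 were -0.29 to 0.64 for Tnf in DC, -0.61 to 0.87 for Ccl4 in AM, -0.24 to 0.33 for Tnf, -0.064 to 1.21 for Cxcl2 and -0.21 to 0.56 for Ccl2 in Ly6Chi, and -0.23 to 0.63 for Ccl2 in Ly6Clo.

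Of 27 calls between normoxic populations, 18 held in all 31 alternatives each. In DC over Ly6Chi the count of 5 was 3 without the replicate block of litter, 3 without litter 100, 2 without litter 108 and 2 to 5 with 1 library left out. In AM over Ly6Clo the count of 4 was 2 without the replicate block. Over all genes, calls fell outside 1.5 times without litter 93 in DC over Ly6Chi (2045, against 3434 with all litters), DC over Ly6Clo (1736, against 2926), AM over Ly6Clo (1639, against 2574) and Ly6Chi over Ly6Clo (2103, against 3677), and without litter 108 in DC over AM (3959, against 5977), AM over Ly6Clo (1432) and Ly6Chi over Ly6Clo (2200), with fewer libraries in each fit. The test between populations called Il1a, Ccl2 and Ccl4, 3 genes, without the filter and 0 under the other alternatives run for it, the added one included. The litter block changed no other count of these genes by over 1.5 times. Il6 had at most 30 counts in a library, which limits its precision; it passed the filter in the test between populations, and in DC and Ly6Chi it did so without litter 93, with log2 fold changes of 2.40 (edgeR adjusted p = 0.398) and 1.34 (edgeR adjusted p = 0.786).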
